A study of Mus musculus with 22 samples.

Results

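In mouse regulatory T cells (Treg cells) labelled IkE5, 2526 regions of chromatin carried acetylation of histone H3 at lysine 27 (H3K27ac) in both libraries where neither wild-type (WT) library had a peak. They are called gained regions here. To find them, the peaks of the 4 H3K27ac lists were joined wherever they overlapped by at least 1 bp, which gave 64752 regions, and those with a peak in both IkE5 lists and in no WT list were kept, 3.90% of all. The regions were thus chosen by the presence of H3K27ac peaks in these 4 lists, so their H3K27ac values are descriptions and carry no test. The opposite class, called lost regions, had a peak in both WT lists and in no IkE5 list and held 3039 regions (4.69%), and 20229 regions had a peak in all 4 lists.

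The peaks came from chromatin immunoprecipitation sequencing (ChIP-seq) of primary Treg cells from spleen and lymph nodes. IkE5 cells are labelled as carrying a deletion named IkE5, and WT cells are the comparison. The labels do not expand the name or say which promoter drives the deletion, the series title names Ikzf1, the gene of the transcription factor Ikaros, and how much Ikaros protein was left is not known from the lists. Cells of both genotypes were stimulated for 1 h with a cocktail. Fixation was in 1% formaldehyde and took 5 min for H3K27ac libraries and 30 min for those of the other proteins. Besides H3K27ac, the transcription factors Foxp3 and NFAT1 and the acetyltransferase p300 were mapped with 2 libraries per genotype, and Ikaros with 2 libraries in WT cells.

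H3K27ac marks active enhancers and promoters, and p300 is an enzyme that writes it. Foxp3 defines Treg cells and holds back genes of effector T cells, among them cytokine genes. NFAT1 enters the nucleus after calcium signals and drives cytokine genes in effector T cells. Ikaros is a zinc finger protein that can recruit deacetylase complexes and repress genes in lymphocytes.

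No genome sequence was used here, so the gained regions are shown through the promoters they cover. Promoter windows, taken from RefSeq on GRCm38.p6 from 250 bases before to 50 bases after a start site, were matched by position, and 166 of 32851 windows overlapped a gained region, among them windows of 102 protein-coding genes. The 4 promoters printed next lie wholly inside a gained region and show the sequence at start sites that these regions cover. Tnfsf15 encodes the tumour necrosis factor (TNF) family ligand TL1A, Csf2 encodes the cytokine GM-CSF, Ifitm1 encodes a membrane protein induced by interferon, and Ptpre encodes a protein tyrosine phosphatase and was chosen after its values were seen. Capitals mark TGGGAA, the core of Ikaros sites, and TGGAAA, the core of NFAT sites, on either strand (TTCCCA and TTTCCA are the reverse strand), and each line runs 5′ to 3′ on the strand of the gene. The Tnfsf15 window is chr4:63745010-63745309 on the minus strand, the Csf2 window is chr11:54249850-54250149 on the minus strand, the Ifitm1 window is chr7:140967826-140968125 on the plus strand, and the Ptpre window is chr7:135605578-135605877 on the plus strand.
Tnfsf15: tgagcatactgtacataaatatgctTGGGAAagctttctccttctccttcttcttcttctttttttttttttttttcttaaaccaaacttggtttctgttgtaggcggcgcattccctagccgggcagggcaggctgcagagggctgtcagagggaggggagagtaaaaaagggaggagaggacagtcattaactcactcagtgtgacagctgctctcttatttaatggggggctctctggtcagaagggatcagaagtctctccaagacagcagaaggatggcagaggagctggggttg
Csf2: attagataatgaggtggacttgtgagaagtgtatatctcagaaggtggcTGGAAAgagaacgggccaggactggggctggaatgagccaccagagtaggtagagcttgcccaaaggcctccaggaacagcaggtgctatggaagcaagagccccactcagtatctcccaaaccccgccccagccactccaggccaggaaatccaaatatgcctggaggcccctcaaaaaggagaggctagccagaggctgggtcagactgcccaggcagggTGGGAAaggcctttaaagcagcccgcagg
Ifitm1: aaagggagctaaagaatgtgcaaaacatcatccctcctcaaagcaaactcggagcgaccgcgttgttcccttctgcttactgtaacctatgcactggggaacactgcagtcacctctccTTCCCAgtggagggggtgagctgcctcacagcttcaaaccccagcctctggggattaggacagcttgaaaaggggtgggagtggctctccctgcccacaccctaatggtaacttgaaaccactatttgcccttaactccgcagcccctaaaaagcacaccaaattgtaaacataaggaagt
Ptpre: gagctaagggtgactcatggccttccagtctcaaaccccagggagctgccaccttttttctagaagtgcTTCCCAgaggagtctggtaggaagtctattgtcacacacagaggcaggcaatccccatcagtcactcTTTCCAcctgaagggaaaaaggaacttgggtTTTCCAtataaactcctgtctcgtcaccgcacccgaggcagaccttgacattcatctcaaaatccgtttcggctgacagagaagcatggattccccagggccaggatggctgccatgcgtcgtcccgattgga

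H3K27ac peaks covered all 300 bases of each window in IkE5 library 1 and none in either WT library, and in IkE5 library 2 they covered 300 bases of the Tnfsf15 window, 228 of the Ifitm1 window, 300 of the Ptpre window and 0 of the Csf2 window. The Tnfsf15 window overlapped a Foxp3 peak in both IkE5 libraries and in neither WT library, and an Ikaros peak in 1 of the 2 WT libraries. The Ptpre window overlapped a p300 peak in both IkE5 libraries and in neither WT library. The Csf2 and Ifitm1 windows overlapped no peak of Foxp3, p300, NFAT1 or Ikaros. TGGGAA occurred in 33.1% of the promoter windows at gained regions, against 22.2% of the windows at regions with H3K27ac in all 4 lists and 25.6% of all windows. TGGAAA occurred in 27.7% of the windows at gained regions, against 16.4% of those at regions in all 4 lists and 21.4% of all windows. The core of the interferon-stimulated response element, a spaced repeat, occurred in 3.61% of the windows at gained regions, against 3.20% of those at regions in all 4 lists and 3.44% of all windows. Both strands were searched, matches of different motifs may overlap, and a match of these letters is not a binding site. The 166 windows at gained regions came from 148 genes, so some genes counted more than once. The base composition of the sets is not given here, and no test was made on these shares.

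The whole H3K27ac lists held 47982 and 37152 peaks in the IkE5 libraries and 53032 and 35272 in the WT libraries, so neither genotype had the longer lists throughout. Read depth is unknown, since the lists give positions only, and a difference in the number of cells that carry a mark cannot be told apart from a difference in the mark per cell. All 12 Treg and T cell marker genes, Foxp3, Il2ra and Ctla4 among them, had H3K27ac peaks in all 4 libraries, with a summed length of 412 and 353 kb in IkE5 and 407 and 298 kb in WT. Of the 13 B cell markers 11 had a peak in at least 1 library, with 11.4 and 10.6 kb at Cd79a in IkE5 and 15.2 and 15.2 kb in WT, Ms4a1 was at 0 in every library, and the summed length over the list was 32.7 and 30.9 kb in IkE5 and 39.6 and 34.4 kb in WT. Of the 14 myeloid markers 7 were at 0 in every library, Csf1r and Adgre1 among them, and the list summed to 17 and 17.4 kb in IkE5 and 23.1 and 16.3 kb in WT. Of the 12 markers of CD8 T cells and natural killer cells 4 were at 0 in every library and Cd8a had no peak in either IkE5 library, with list sums of 10.2 and 9.91 kb in IkE5 and 14.5 and 9.54 kb in WT.

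Gained regions were narrow and mostly away from promoters. Their width ran from 500 to 7515 bp with a median of 963 bp, against 2430 bp for the regions present in all 4 lists and 889 bp for the lost regions, and together they covered 2.97 Mb. Within a gained region the peaks covered a median of 771 bp in IkE5 library 1 and 688 bp in IkE5 library 2. Of the gained regions, 1559 (61.7%) overlapped a protein-coding gene, against 77.4% of the regions in all 4 lists and 62.8% of the lost regions. Over the 2440 gained regions on chromosomes with annotated promoter windows, 139 (5.70%) touched a promoter window, against 42.3% of the regions in all 4 lists and 4.14% of the lost regions. The median distance to the nearest start site was 18 kb for gained regions, 4.76 kb for regions in all 4 lists and 19.3 kb for lost regions. Gained and lost regions were thus alike in width and position, and both differed from the regions that the genotypes shared.

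Many gained regions lay beside chromatin that WT cells acetylated as well. The median distance to the nearest WT H3K27ac peak was 4.36 kb, 589 gained regions (23.3%) lay within 1 kb of such a peak, and 1193 (47.2%) lay more than 5 kb from any. Every chromosome but Y held gained regions, from 3.22% of the regions of chromosome 16 to 4.64% of those of chromosome 18. On the near side of the rule, 3419 regions had a peak in both IkE5 lists and in 1 WT list, with a median width of 1473 bp. On the other near side, 12590 regions had a peak in 1 IkE5 list and in no WT list, with a median width of 500 bp, which is also the width of the narrowest gained region. The gained regions thus formed a class between broader regions that only 1 WT list called as well and narrower regions that only 1 IkE5 list called.

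Foxp3, p300 and NFAT1 were not used to choose the regions, and all 3 had peaks in more of the gained regions in IkE5 than in WT libraries. For Foxp3, 617 and 310 gained regions (24.4% and 12.3%) held a peak in the IkE5 libraries, against 199 and 109 (7.88% and 4.32%) in the WT libraries. For p300 the numbers were 264 and 219 (10.5% and 8.67%) in IkE5, against 65 and 35 (2.57% and 1.39%) in WT. For NFAT1 they were 101 and 77 (4.0% and 3.05%) in IkE5, against 36 and 30 (1.43% and 1.19%) in WT. Both IkE5 libraries lay above both WT libraries for each of the 3 proteins. The means were 18.3 ± 8.59% in IkE5 and 6.10 ± 2.52% in WT for Foxp3, a ratio of 3.01, then 9.56 ± 1.26% in IkE5 and 1.98 ± 0.840% in WT for p300, a ratio of 4.83, and 3.52 ± 0.672% in IkE5 and 1.31 ± 0.168% in WT for NFAT1, a ratio of 2.70 (SD, n = 2 each). The exact permutation test over libraries, two-sided, gave p = 0.333 for each, the smallest value that 2 libraries against 2 allow, so none of these differences could pass 0.05. Nothing in the labels says whether replicate libraries were made from different mice, so the p-values reflect only how libraries vary, and that variation may be technical.

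The difference in favour of IkE5 was not found over the regions that both genotypes acetylated. There Foxp3 peaks were present in 61.1 ± 1.84% of regions in IkE5 and 61.4 ± 4.39% in WT, and p300 peaks in 35.9 ± 5.88% in IkE5 and 38.1 ± 5.16% in WT (SD, n = 2 each). NFAT1 peaks were present in 14.3 ± 3.42% in IkE5 and 27.3 ± 2.01% in WT, a ratio of 0.524, and the IkE5 NFAT1 lists were the shorter ones, with 4908 and 3435 peaks against 7825 and 6850 in WT. In lost regions the order of the genotypes turned round, with 8.23% in IkE5 and 12.1% in WT for Foxp3, 2.17% in IkE5 and 3.97% in WT for p300, and 0.428% in IkE5 and 3.31% in WT for NFAT1. Taking for each library the log2 ratio of the share in gained regions to the share in regions of all 4 lists allows for the length of its list. This log2 ratio was higher in IkE5 than in WT by 1.57 for Foxp3, by 2.42 for p300 and by 2.37 for NFAT1 (exact permutation test over libraries, p = 0.333 each). Single libraries moved these values by over 1.5 times. The difference in share for Foxp3, 12.3 percentage points, was 6.18 without IkE5 Foxp3 library 1 and 4.25 without IkE5 H3K27ac library 2, and the log2 differences were 0.97, 1.09 and 1.51 for Foxp3, p300 and NFAT1 without WT H3K27ac library 1.

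**Figure D1:**
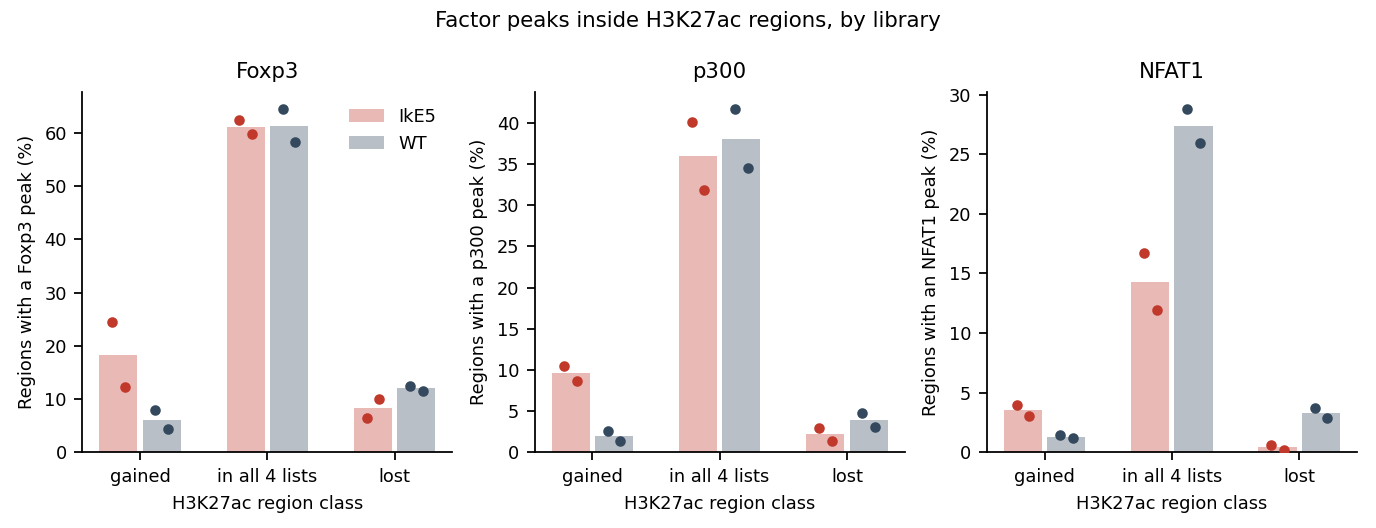
Share of H3K27ac regions with a peak of Foxp3, p300 or NFAT1 (%, vertical axis), for gained regions, regions in all 4 lists and lost regions; points are the 2 libraries and bars their mean, IkE5 in red and WT in blue-grey. In gained regions both IkE5 points lie above both WT points for each protein, and in lost regions below them.

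Most gained regions held no peak of any of these proteins. Of the 2526, 901 (35.7%) held a peak of Foxp3, p300, NFAT1 or Ikaros in at least 1 library and 1625 (64.3%) held none. A peak in any IkE5 library was found in 757 (30.0%), and a Foxp3, p300 or NFAT1 peak in any WT library in 279 (11%). Within the gained regions, 118 (4.67%) had Foxp3 in both IkE5 and in no WT library, against 1.40% of all 64752 regions, and 4 had the reverse pattern (1.01% of all regions). The same pattern was seen for p300 in 99 gained regions (3.92%, against 1.49% of all regions), with the reverse in 3 (1.36% of all regions). For NFAT1 it was seen in 32 (1.27%, against 0.483% of all regions), with the reverse in 6 (2.94% of all regions). Within gained regions NFAT1 seldom stood without p300, since of 48 with NFAT1 in both IkE5 libraries 43 had p300 in both as well. Foxp3 and p300 were both present in both IkE5 libraries at 70 gained regions, out of 136 with p300 and 211 with Foxp3. These joint counts, and the share with no peak of any protein, are given for gained regions only. Whether they are particular to gained regions was not tested.

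Ikaros was uncommon in the gained regions, as it was in the H3K27ac regions outside the gained, lost and shared classes. The Ikaros peaks of WT cells lay in 219 and 294 gained regions (8.67% and 11.6%), against 71.4% and 78.9% of the regions in all 4 lists and 12.7% and 23.2% of the lost regions. In the 38958 regions outside these classes the shares were 8.76% and 10.1%. Both WT Ikaros libraries had a peak in 124 gained regions (4.91%), exactly 1 had a peak in 265, and neither had one in 2137. In the 124 regions with Ikaros in both libraries, Foxp3 was present in 65.3% and 55.6% in IkE5 and in 64.5% and 36.3% in WT, p300 in 44.4% and 30.6% in IkE5 and in 31.5% and 16.9% in WT, and NFAT1 in 13.7% and 10.5% in IkE5 and in 17.7% and 14.5% in WT. These values overlapped between the genotypes for Foxp3 and p300, and for NFAT1 both IkE5 values were below both WT values. In the 2137 regions without Ikaros, Foxp3 was present in 18.9% and 6.93% in IkE5 and in 2.48% and 1.12% in WT, p300 in 6.46% and 5.76% in IkE5 and in 0.281% and 0.234% in WT, and NFAT1 in 2.48% and 2.06% in IkE5 and in 0.187% in each WT library. The ratio of the mean shares, IkE5 over WT, was 7.17 for Foxp3, 23.7 for p300 and 12.1 for NFAT1 without Ikaros, 2.12, 4.45 and 2.83 with Ikaros in 1 library, and 1.20, 1.55 and 0.750 with Ikaros in both. As a difference of mean shares, IkE5 minus WT, the order was another, at 11.1, 5.85 and 2.08 percentage points without Ikaros, 22.5, 18.9 and 6.23 with Ikaros in 1 library, and 10.1, 13.3 and -4.03 with Ikaros in both, so the comparison of these sets depends on the scale. The log2 ratio of the share without Ikaros to the share with it, taken within each library, was higher in IkE5 by 2.46 for Foxp3, 3.90 for p300 and 4.01 for NFAT1 (exact permutation test over libraries, p = 0.333 each, the smallest possible). Ikaros was mapped in WT cells only, so this split sorts the regions by a WT measurement, and the part that this plays in the contrast was not tested.

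**Figure D2:**
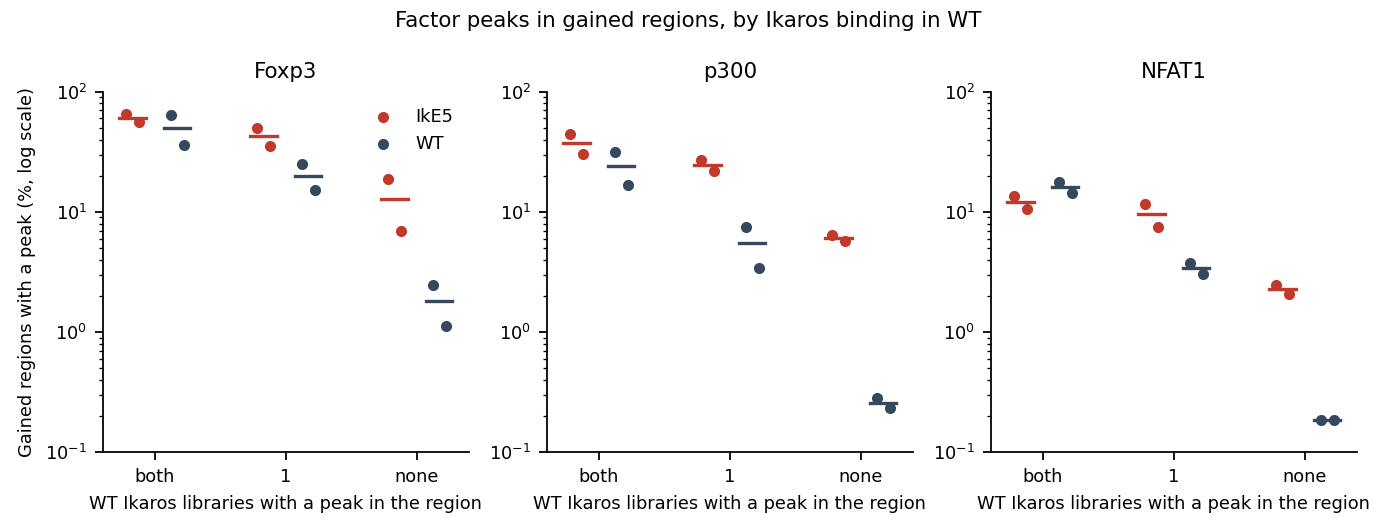
Share of gained regions with a peak of Foxp3, p300 or NFAT1 (%, log scale), with the gained regions split by whether both, 1 or none of the WT Ikaros libraries had a peak there; points are libraries and short lines their means, IkE5 in red and WT in dark blue. On this log scale the distance between IkE5 and WT is widest in the 2137 regions without an Ikaros peak.

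A few gained regions combined several IkE5 only proteins. In 45 gained regions 2 of Foxp3, p300 and NFAT1 had a peak in both IkE5 and in no WT library, and in 8 all 3 did. These 53 gained regions were part of 246 regions with 2 or more such proteins among all 64752 (0.380%), and no gained region had the reverse pattern for 2 or more proteins. Their median width was 1547 bp, 36 of the 53 lay more than 5 kb from any WT H3K27ac peak, and 18 held an Ikaros peak in at least 1 WT library. No protein-coding gene lay within 10 kb of 31 of them, and 16 lay inside a gene.

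Of the 8 regions with all 3 proteins, the region upstream of Il3 stood out because neither WT H3K27ac library had a peak at the gene, 10 kb on each side included. Il3 encodes a growth factor for blood cells that activated T cells secrete. This region (chr11:54270243-54273281, 3039 bp) began 2.96 kb upstream of the start site and lay 14.4 kb from the nearest WT peak, and it was covered over 3039 bp in IkE5 library 1 and 765 bp in IkE5 library 2. Within it the Foxp3 peaks of the IkE5 libraries lay at chr11:54271592-54272091 and chr11:54271371-54271870, the p300 peaks at chr11:54271474-54271973 and chr11:54271451-54271950, and the NFAT1 peaks at chr11:54271580-54272079 and chr11:54271672-54272171, so that the 6 peaks lay on top of each other. Another 3 of the 8 lay inside genes. They were in Cep112 (chr11:108584245-108587982), a centrosomal protein gene, where the nearest WT H3K27ac peak was 95.5 kb away, in Vdr (chr15:97892187-97893472), the vitamin D receptor gene, at 0.807 kb from a WT peak, and in Aplp2 (chr9:31204954-31205609), which encodes a relative of the amyloid precursor protein, at 5.01 kb from a WT peak. The remaining 4 lay between genes, 24.0 kb from Lpgat1, 117 kb from Mmadhc, 10.5 kb from Erv3 and 83.2 kb from Slc38a6. In the region near Erv3 the Foxp3 peaks of the IkE5 libraries did not overlap each other.

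Among the 45 regions with 2 such proteins, 1 lay in Fhl2, which encodes a LIM domain protein, and held p300 and NFAT1 in both IkE5 libraries. The same 2 proteins marked a region at the start site of Lima1, an actin-binding protein gene (chr15:99817999-99820506), a region in Heg1 (chr16:33759879-33763553), and a region 3.93 kb upstream of Gkn3. Foxp3 and p300 marked a region of Dock10 (chr1:80715173-80717152), and a region 9.35 kb upstream of Eif2b2, which encodes a subunit of a translation initiation factor. Such a region did not always go with more H3K27ac at the gene, since Extl3, which encodes a glycosyltransferase, had 7.49 and 7.82 kb under peaks in IkE5 and 15.7 and 9.11 kb in WT, and Nav1, a neuronal gene, had 5.15 and 4.61 kb in IkE5 and 7.91 and 5.33 kb in WT. At Gkn3 the covered length was 4.59 and 4.01 kb in IkE5 and 0 kb in both WT libraries. Some of the 31 distant regions lay nearest to genes of T cell function, which were picked here after their values were seen. Foxp3 and p300 were IkE5 only at a region 30.5 kb upstream of Il2 (chr3:37156460-37158534) and held NFAT1 in IkE5 library 1. Il2 encodes interleukin 2, on which Treg cells depend. There both WT Ikaros libraries had a peak and a WT H3K27ac peak lay 2.18 kb away. p300 and NFAT1 were IkE5 only at a region of 5324 bp that lay 22.7 kb upstream of Ccl1 (chr11:82202510-82207833), a chemokine gene. There the p300 peaks of the IkE5 libraries lay at separate places and did not overlap each other. Foxp3 and p300 were IkE5 only at regions 64.2 kb from Maf (chr8:115771095-115772019), which encodes a transcription factor of cytokine-producing T cells, 34.2 kb from Nfkbiz, which encodes a nuclear regulator of NF-kappa B, and 25.5 kb from Socs3, which encodes an inhibitor of cytokine signals.

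Gained regions lay close together at some genes and alone at others. Of the 2526, 1075 (42.6%) lay within 50 kb of another gained region, against 43.7% of the lost regions among themselves. Joined at that distance they formed 422 runs of 2 or more, 123 runs of 3 or more with 477 regions, and 24 runs of 5 or more, and 1451 regions (57.4%) stood alone. The lost regions formed 512, 152 and 30 such runs, so the shape of the clustering was close to that of the opposite class. A gained region lay in or within 10 kb of 1662 protein-coding genes, 11.2% of the 14790 genes with any H3K27ac region, against 1962 genes (13.3%) for lost regions. Of the 1662 genes 330 (19.9%) also had a lost region, 16.8% of the genes with a lost region. A single gained region was found at 1319 genes, 2 or more at 343, 3 or more at 100 and 5 or more at 17. The other 690 gained regions lay more than 10 kb from any protein-coding gene.

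Runx2 had the most gained regions of any gene. It encodes a runt domain transcription factor known for bone formation that is also expressed in T cells. All 15 of its gained regions lay inside the gene (chr17:44509540-44741148 for the run), from 660 to 3469 bp wide, with 6 regions of all 4 lists and no lost region between them. H3K27ac peaks in the gene and 10 kb on each side covered 112 and 68.0 kb in the IkE5 libraries, against 40.1 and 11.9 kb in the WT libraries. Few of the 15 held a factor peak in IkE5 either. In IkE5 libraries 1 and 2, 2 and 1 of them held Foxp3, 0 and 1 held p300, and 0 and 0 held NFAT1. The widest of the 15 held Foxp3 in both IkE5 and in no WT library, and no gained region of Runx2 held a peak of Foxp3, p300 or NFAT1 in WT. A separate run of 7 lay between Clic5 and the far end of Runx2 (chr17:44336756-44437484), in a stretch where the IkE5 libraries had 13.7 and 8.64 kb under peaks and the WT libraries had none. There 6 of the 7 held a Foxp3 peak in IkE5 library 1 and 0 in IkE5 library 2, 1 held NFAT1 in both IkE5 libraries, and another held p300 in both.

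The next largest run had 11 gained regions over Hipk2, the gene of a nuclear protein kinase, and the neighbouring Tbxas1, the gene of thromboxane synthase (chr6:38779508-38897970). Its span also held 1 lost region and 7 regions of all 4 lists. H3K27ac peaks there covered 65.9 and 54.7 kb in IkE5 and 33.2 and 20.1 kb in WT. Itpr1, which encodes a receptor that releases calcium from internal stores, had 10 gained regions and 1 lost region, with 118 and 103 kb covered in IkE5 and 80.5 and 39.1 kb in WT. Etv6, the gene of an ETS family repressor, had 7, with 147 and 61.2 kb in IkE5 and 49.3 and 16.8 kb in WT. Gas7 and Carmil1, which encode proteins that act on the actin cytoskeleton, had 6 each in chromatin that was close to free of the mark in WT. Gas7 had 23.7 and 12.3 kb under peaks in IkE5 and 2.58 and 0 kb in WT, and Carmil1 had 11.4 and 8.81 kb in IkE5 and 0.636 and 0.645 kb in WT. At Carmil1 4 of the 6 gained regions held Foxp3 in IkE5 library 1 and 0 in IkE5 library 2, and 2 held NFAT1 in IkE5 library 2 and 0 in IkE5 library 1. The 2 with NFAT1 are neighbours that share a single NFAT1 and a single Foxp3 peak, and no WT library of these proteins had a peak in any of the 6. The others among the 12 genes with most were Asap1 and Mical3 with 7 gained regions each and B4galt5, Rad51b and Grb2 with 5 each. At 5 gained regions 9 genes tied, and the 4 with the largest summed width of gained regions were kept. Asap1 also had 1 lost region. Rad51b, a DNA repair gene, also had 5 lost regions, and its covered length was 117 and 105 kb in IkE5 and 144 and 77.9 kb in WT, with WT values on both sides of those of IkE5. Grb2, an adaptor of receptor signalling, had 52.5 and 35.7 kb in IkE5 and 32.1 and 16.2 kb in WT, so for Grb2, unlike Rad51b, both IkE5 values were above both WT values. Since these genes were chosen by gained regions, which add to IkE5 length only, the choice favours higher IkE5 values.

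**Figure D3:**
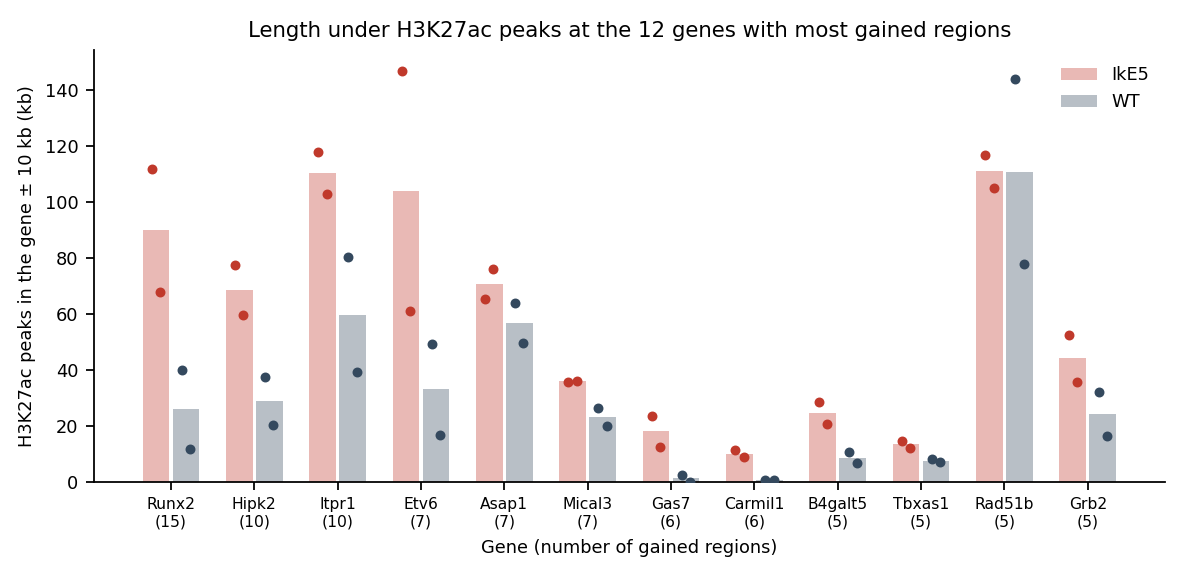
Length under H3K27ac peaks in the gene and 10 kb on each side (kb, vertical axis) at the 12 genes with most gained regions, with the number of gained regions under each name; points are libraries and bars their mean, IkE5 in red and WT in blue-grey. Rad51b, with 5 gained and 5 lost regions, is the only 1 of the 12 where the genotypes overlap, and Gas7 and Carmil1 are close to 0 in WT. The genes were chosen by gained regions, which add to IkE5 length only.

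The TNF family ligands had the highest share of genes with a gained region of all the lists except the Treg and T cell markers. Of the 17 genes of the list 16 had any H3K27ac region, and 6 of these (37.5%) had a gained region while 0 had a lost region, beside 11.2% and 13.3% over all genes. The 6 were Tnfsf4 (OX40 ligand), Tnfsf9 (4-1BB ligand), Tnfsf10 (TRAIL), Tnfsf11 (RANK ligand), Tnfsf15 (TL1A) and Cd70, and they had 10 gained regions. At Tnfsf11 8 gained regions formed a run in and upstream of the gene (chr14:78285029-78413297), 4 of them inside it, and H3K27ac peaks in that stretch covered 55.3 and 52.5 kb in IkE5 and 22.9 and 4.96 kb in WT. Of the 8, 2 had a Foxp3 peak in IkE5 library 1 and 0 in IkE5 library 2, against 1 in each WT library. Tnfsf15 was covered over 1.93 and 2.41 kb in IkE5 and 0 kb in both WT libraries, and the region over its start site (chr4:63744482-63746619) lay 75.4 kb from the nearest WT H3K27ac peak. Tnfsf4 was likewise covered over 2.42 and 1.96 kb in IkE5 and 0 kb in both WT libraries. At Tnfsf9 the genotypes overlapped, with 7.34 and 5.51 kb in IkE5 and 5.72 and 1.01 kb in WT, and the median log2 ratio of covered length over the 16 genes, IkE5 over WT with 1 kb added to both, was 0.23. The gained region of Tnfsf4 (chr1:161395459-161397468) held Foxp3 and p300 in both IkE5 libraries and in WT library 1, and unlike that of Tnfsf15 it held Ikaros in both WT libraries.

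Effector cytokine genes, which encode signals that conventional T cells release and Treg cells mostly do not, had gained regions and no lost ones. Of 17 genes with any H3K27ac region 5 (29.4%) had a gained region, Ifng, Il3, Il4, Il13 and Csf2, and 0 had a lost region. Over all genes the shares were 11.2% and 13.3%. Il4 and Il13 share a gained region (chr11:53626119-53627920), so the 5 genes had 4 regions, and Il3, Il4, Il13 and Csf2 lie close together on chromosome 11. The Csf2 region lay over most of the gene and its start site (chr11:54247807-54252148), covered over 4342 bp in IkE5 library 1 and 500 bp in IkE5 library 2, and lay 0.591 kb from a WT peak. The gained region of Ifng, the gene of interferon gamma, lay 4.53 kb upstream of the start site (chr10:118434042-118436515) and held p300 in both IkE5 and in no WT library. Length under H3K27ac peaks at Ifng was 7.37 and 3.96 kb in IkE5 and 3.6 and 0 kb in WT. The median log2 ratio of covered length, IkE5 over WT with 1 kb added to both, was 0.81 over the 17 genes and -0.01 over all genes with a region.

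Interferon-induced genes, the longest of the lists, formed the largest group of list genes with gained regions. Of 65 with any H3K27ac region 14 (21.5%) had a gained region and 6 had a lost region, beside 11.2% and 13.3% over all genes. The list had 16 gained and 11 lost regions. The 1 gained region of Ifitm2 is shared with Ifitm1, and that of Ifitm6 is shared with Ifitm3. The median log2 ratio of covered length was 0.18. The Ifitm cluster, whose proteins block the entry of viruses, held a run of 8 gained regions (chr7:140967369-141043703) that together measured 18.1 kb, and H3K27ac peaks over that stretch covered 45.0 and 30.4 kb in IkE5 and 5.54 and 1.39 kb in WT. Ifitm1 itself had 12.2 and 5.96 kb under peaks in IkE5 and 0 kb in both WT libraries. At Ifitm6 the gained region lay over the start site and held p300 in both IkE5 and in no WT library. Other members with a gained region were Ifih1 and Ddx58, which encode sensors of viral RNA, Ifit2, Xaf1, Ifi204, which encodes a DNA sensor, Psmb8, an immunoproteasome subunit gene, and the guanylate-binding protein genes Gbp4, Gbp5, Gbp8 and Gbp10. Both IkE5 libraries had more covered length than both WT libraries at the 4 Ifitm genes, Ifit2, Xaf1 and Ifi204. By the rule a gained region adds to IkE5 length only, so the choice of genes favours this order. At Ifih1, Ddx58, Psmb8 and the 4 Gbp genes the libraries of the genotypes met or overlapped, with 22.3 and 17.2 kb in IkE5 and 21.2 and 14.5 kb in WT at Gbp4. The Gbp, Ifitm, Ifi204 and Serpinb genes have near-identical copies, and how reads that match several copies were placed is not stated in the labels or lists.

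The 5 widest gained regions lay mostly outside genes. The widest, 7515 bp on chromosome 18, lay 14.1 kb from Iigp1, the gene of a GTPase induced by interferon, and the fourth widest, 6694 bp (chr12:103485629-103492322), lay 28.4 kb from Ifi27l2b. Neither held a p300 or NFAT1 peak in any library. The other 3 lay 91.0 kb upstream of Tex13d (7026 bp), in Hk2, the gene of the glycolytic enzyme hexokinase 2 (6826 bp, chr6:82748713-82755538), and 12.7 kb from Pwwp2b (6570 bp, chr7:139279969-139286538). The Pwwp2b region held Foxp3 in both IkE5 and in no WT library. The Hk2 region was covered over 6826 bp in IkE5 library 1 and 1202 bp in IkE5 library 2, so its width came from the first library.

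**Figure D4:**
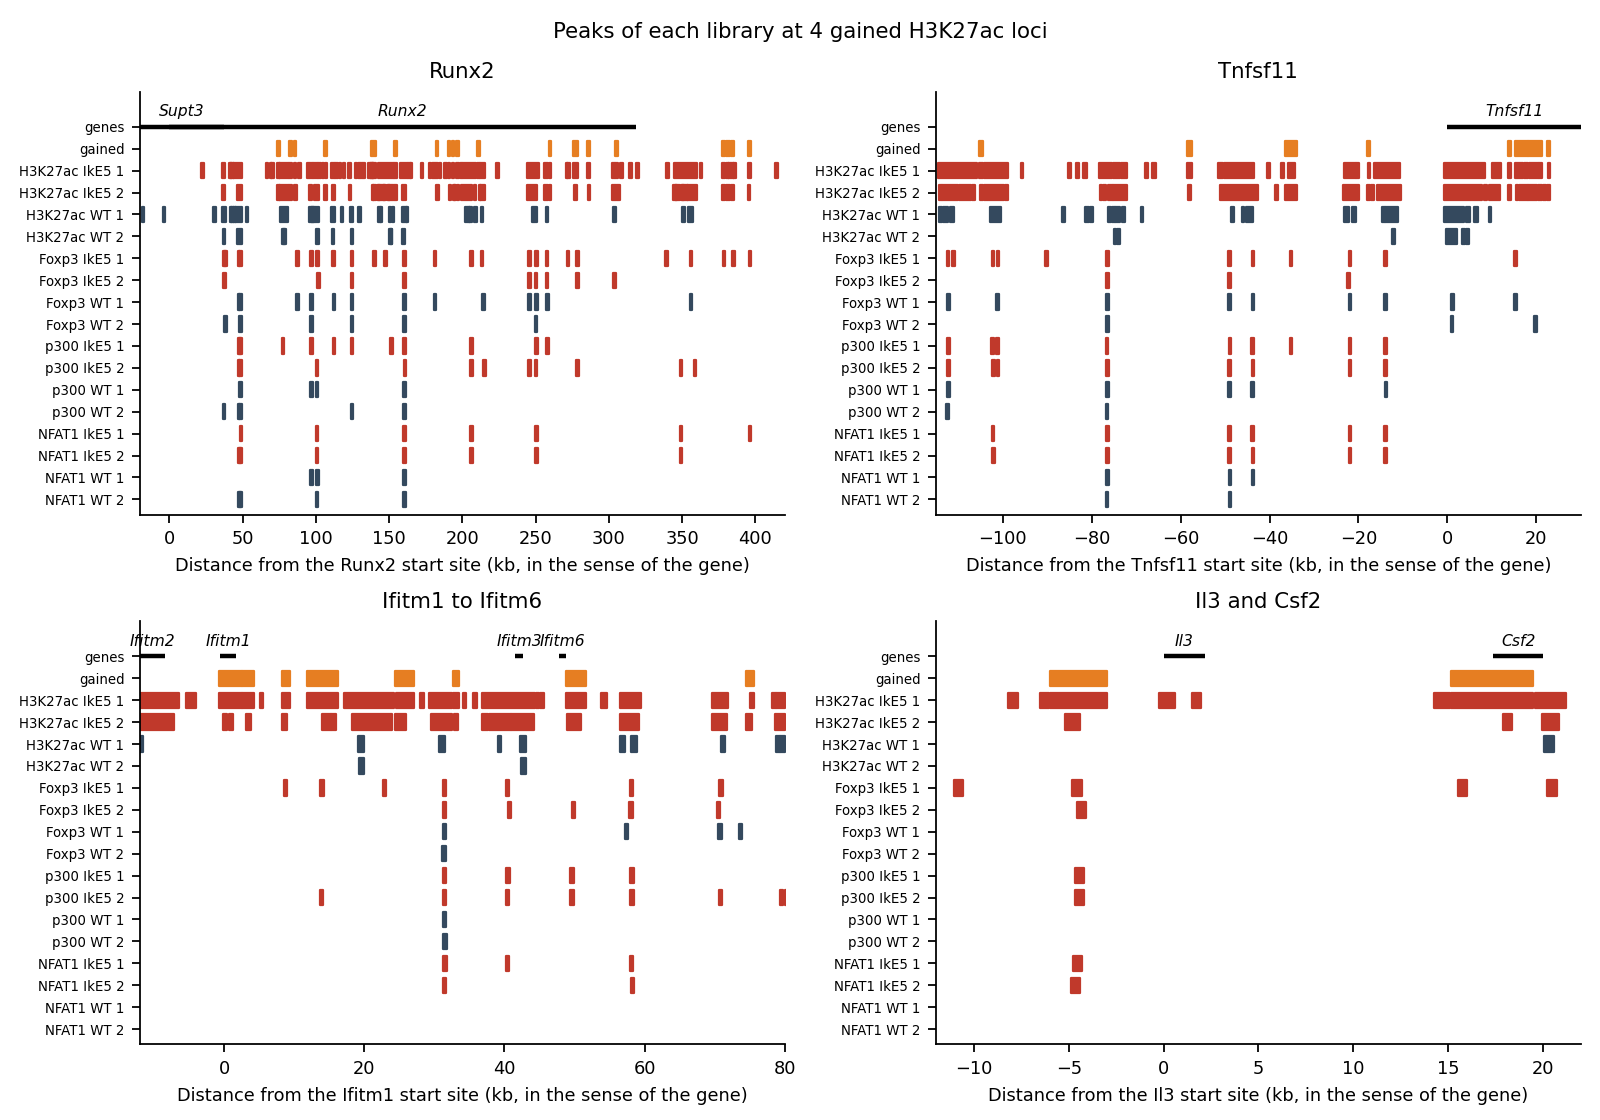
Peaks of every library at Runx2, Tnfsf11, the Ifitm cluster and Il3 with Csf2, by distance from the most upstream start site of the first-named gene (kb, horizontal axis); each row is a library, IkE5 in red above WT in dark blue, with genes in black and gained regions in orange, and peaks narrower than the smallest drawn mark are widened to be seen. At Il3 the 6 peaks of Foxp3, p300 and NFAT1 in IkE5 stack inside the gained region, where the WT rows are empty.

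Apart from housekeeping genes, myeloid markers and markers of CD8 T and natural killer cells, all lists lay above the 11.2% of all genes. Several did so by little, with shares from 12.1% to 13.6%. Co-inhibitory and exhaustion genes had a gained region at 4 of 19 (21.1%) and a lost region at 2, where 13.3% of all genes had a lost region. The 4 were Lag3, which encodes an inhibitory receptor and had 2 gained regions, Entpd1, the gene of CD39, and Cd274 and Pdcd1lg2, the genes of the ligands PD-L1 and PD-L2. The 2 regions of Lag3 lay outside the gene, the first 6.04 kb away and shared with Cd4, and the second nearest to Ptms. The covered lengths of the genotypes overlapped at Entpd1, Cd274 and Pdcd1lg2. At Lag3 both IkE5 values were above both WT values, an order that its gained regions favour. The median log2 ratio of covered length over this list was 0.03. The Ikaros family and corepressor list had 6 of 25 (24.0%), including Ikzf3, the gene of the Ikaros relative Aiolos, with 2 gained regions, and Gatad2a, a gene of the NuRD corepressor, with 4. Both IkE5 libraries lay above both WT libraries at Ikzf3, at 72.4 and 67.2 kb in IkE5 and 64.6 and 54.7 kb in WT, and at Gatad2a, at 31.6 and 28.7 kb in IkE5 and 27.3 and 18.9 kb in WT. Their gained regions add to the IkE5 lengths only, which favours this order. The T helper 1 list had 2 of 16 (12.5%), Ifng and Stat4, which relays the signal of interleukin 12. The T helper 2, T helper 17 and follicular list had 3 of 22 (13.6%), Il4, Il13 and the chemokine receptor gene Ccr4. Cytotoxic genes had 2 of 14 (14.3%), Serpinb9, which encodes an inhibitor of granzyme B, and Serpinb6b. The Treg signature had 5 of 32 (15.6%), Socs2 with 2 gained regions among them, activation-induced genes 4 of 33 (12.1%), chemokine receptor and homing genes 4 of 26 (15.4%), and genes of cytokine receptors and their inhibitors 4 of 32 (12.5%).

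Naive and quiescence genes showed the opposite balance. Of 20 such genes 3 (15.0%) had a gained region with 3 regions in all, and 14 had a lost region with 75 in all. The shares over all genes were 11.2% and 13.3%. Bach2, which keeps lymphocytes in a resting state and was picked after its values were seen, had 1 gained and 15 lost regions. Of the marker lists, Treg and T cell markers had a gained region at 6 of 12 (50%), where Cd3d, Cd3e and Cd3g share the same region, B cell markers at 2 of 11 (18.2%), and myeloid markers and CD8 T and natural killer cell markers at 0 of 7 and 0 of 8. The covered lengths of the genotypes overlapped at all 6 of these markers, and Foxp3, given here after its values were seen, had 20.2 and 20.8 kb in IkE5 and 21.7 and 19.4 kb in WT. Housekeeping genes had 1 of 15 (6.67%). The lists hold few genes and some genes belong to several lists, so these shares describe the lists and no test was made on them.

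**Figure D5:**
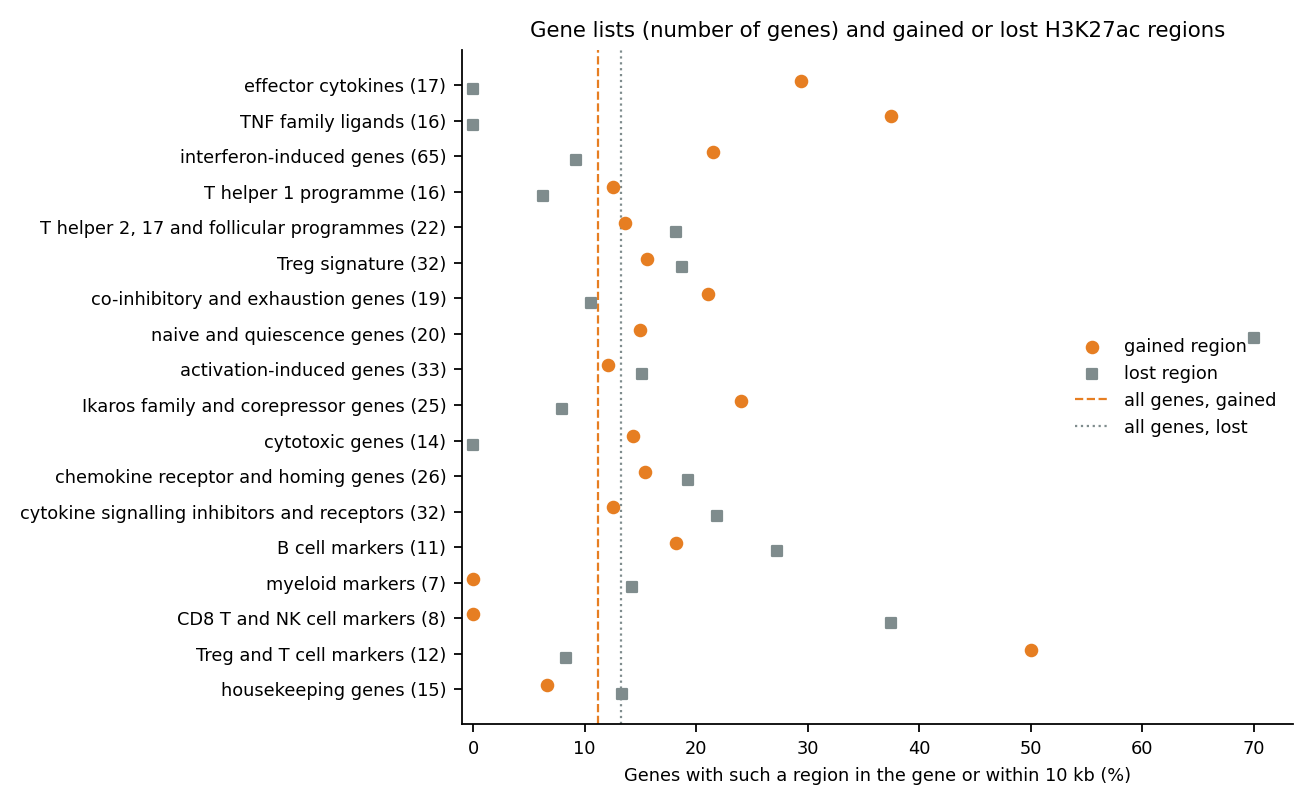
Percent of genes with a gained (orange circles) or lost (grey squares) H3K27ac region in the gene or within 10 kb, for 18 gene lists with the number of genes that had any H3K27ac region in brackets; dashed and dotted lines give the share over all genes, 11.2% for gained and 13.3% for lost. TNF family ligands, effector cytokines and cytotoxic genes have gained and no lost regions, and naive and quiescence genes have a lost region at 14 of 20.

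Distance from WT acetylation went along with more factor peaks in the IkE5 libraries. In both WT libraries this held for Foxp3 only, and not for p300 or NFAT1. In the 1193 gained regions more than 5 kb from any WT H3K27ac peak, Foxp3 was present in 31.3% and 18% in IkE5 and in 8.21% and 5.28% in WT, against 18.3% and 7.13% in IkE5 and 7.58% and 3.45% in WT for the 1333 closer ones. For p300 the distant regions had 13.6% and 10.3% in IkE5 and 2.85% and 1.17% in WT, and the closer ones 7.65% and 7.20% in IkE5 and 2.33% and 1.58% in WT. For NFAT1 the distant regions had 4.44% and 3.6% in IkE5 and 1.42% and 1.01% in WT, and the closer ones 3.6% and 2.55% in IkE5 and 1.43% and 1.35% in WT. The ratio of the mean shares, IkE5 over WT, was 3.65, 5.94 and 3.31 for Foxp3, p300 and NFAT1 in the distant regions and 2.31, 3.81 and 2.22 in the closer ones. The log2 ratio of the share in distant to the share in closer regions was higher in IkE5 by 0.69, 0.74 and 0.61 (exact permutation test over libraries, p = 0.333 each). This split sorts the regions by the WT H3K27ac lists that the rule had used, and the part that this plays in the contrast was not tested. Regions that missed the rule by 1 list had factor peaks as follows. Those with H3K27ac in both IkE5 lists and in 1 WT list had p300 in 20.4% and 18.3% in IkE5 and in 13.7% and 9.92% in WT. Foxp3 was present there in 36.7% and 19.0% in IkE5 and 24.8% and 10.8% in WT, and NFAT1 in 10.0% and 8.63% in IkE5 and 7.22% and 7.28% in WT. Those in 1 IkE5 and no WT list had p300 in 2.84% and 1.84% in IkE5 and in 1.02% and 0.596% in WT. For Foxp3 these shares were 7.27% and 2.81% in IkE5 and 3.34% and 1.41% in WT, and for NFAT1 1.00% and 0.556% in IkE5 and 0.564% and 0.500% in WT. The genotypes thus overlapped for Foxp3 in both sets and for NFAT1 in the second, and were apart for p300 in both.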

How the data were processed

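ChIP-seq peaks of 18 libraries from mouse Treg cells were analysed, and 4 further samples without a peak list are not analysed here. The authors deposited each list as intervals with chromosome, start and end and no score, so read depth is unknown and the values used are the presence and length of peaks. Per the submitters' processing notes, FastQC, Bowtie2, MACS2, bedtools and HOMER were used with build mm10, and the thresholds, the input used and the treatment of replicates are not given in the sources used here. H3K27ac peaks were joined at 1 bp of overlap, and a factor peak counted when it overlapped a region by 1 bp. Genes and promoters came from RefSeq tables of GRCm38.p6, without promoters of chromosome 18. Covered length per gene included 10 kb on each side, and log2 ratios had 1 kb added.

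IkE5 and WT libraries were compared by the two-sided exact permutation test over libraries. The members and gene lists were chosen with earlier results of these data known. Genes were named by a fixed rule: the 12 with most gained regions, the nearest genes of the 5 widest regions and of the 5 largest runs, list genes with a gained region from 7 lists and those with 2 or more from the others, and genes within 10 kb of a gained region over joined IkE5 only peaks of 2 or more factors. No 2 lists shared more than 0.745% of identical intervals over 153 pairs. Deviations of libraries with the same number correlated at 0.40 for H3K27ac, 0.28 for Foxp3, -0.01 for p300 and 0.06 for NFAT1. The joining and the tests were tested on simulated data. Some items are not reported here. Alternatives changed the joining gap, peak width, overlap, distances and libraries. Python 3.11.15, numpy 2.4.6, pandas 2.3.3, scipy 1.17.1 and matplotlib 3.10.9 were used.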

Additional observations from a re-analysis of the deposited data

How the results depend on the processing

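All 87 alternatives of the 6 factor results (the difference in share and the log2 ratio to the regions of all 4 lists, for each of 3 proteins) kept the direction of IkE5 above WT. The difference in share ranged over 4.25 to 21.4 percentage points for Foxp3, 2.67 to 14.2 for p300 and 0.748 to 3.19 for NFAT1, and the log2 values over 0.97 to 2.04, 1.09 to 2.78 and 1.51 to 3.11. The lowest log2 values came without WT H3K27ac library 1 (p = 0.667 for Foxp3, exact permutation test). The lowest shares came without IkE5 H3K27ac library 2, where 1 IkE5 list sufficed to choose a region by construction, and without IkE5 H3K27ac library 1 they were 7.45, 4.29 and 0.990. The highest shares came with H3K27ac peaks of 1000 bp or wider. The exact permutation p for Foxp3 was 0.667 without IkE5 H3K27ac library 2, without WT H3K27ac library 1 (10.8 points), and without WT Foxp3 library 1 (14 points) or 2 (10.5). With the replicate number as a block, a paired exact permutation test gave 12.3, 7.58 and 2.22 points and log2 values of 1.57, 2.42 and 2.37, each at p = 0.500, the smallest that 2 pairs allow, so the block carries no information on these calls.

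Counts depended on the choices more, and the cause was not tested where construction does not show it. Of their alternatives 24 moved a count by over 1.5 times, the Ikaros share by over 1 SD of its libraries or the clustered share out of its 95% Wilson interval, and 15 did not. The number of gained regions was 1381 with peaks of 1000 bp or wider and 1193 beyond 5 kb of a WT peak, and 2876 to 12905 when an H3K27ac library was left out, with fewer lists then required. The share with an Ikaros peak (10.2%, mean of the libraries) was 29.7% with peaks of 1000 bp or wider and 4.17% to 18.9% with a library left out. The share within 50 kb of another gained region (42.6%) was 31.2% with a joining gap of 1000 bp, 32.4% with peaks of 1000 bp or wider, 32.4% beyond 5 kb of a WT peak, 29.2% within 20 kb, 53.6% within 100 kb, and 43.7% to 79.6% with a library left out. Genes with a gained region numbered 1000 with wider peaks, 797 beyond 5 kb of a WT peak, 3528 with a gene window of 50 kb, and 1896 to 5855 with a library left out. A further 2 alternatives were added after seeing the data: without chromosomes X and Y 2482 gained regions remained, and against shared regions of at most 2500 bp the log2 values were 1.55, 2.54 and 3.11.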
